A study of Caenorhabditis elegans with 6 samples.

Results

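Mitochondrial ATP synthase uses the proton gradient across the inner membrane to make ATP. Its catalytic head, F1, faces the matrix and is built of the alpha, beta, gamma, delta and epsilon subunits. A membrane part, Fo, carries the proton path, and a peripheral stalk keeps the head from turning with the rotor. Dimers of the enzyme line the curved edges of cristae, and subunit g is among the small membrane subunits that hold the dimers together. All subunits but a few are encoded in the nucleus, and C. elegans has paralogous genes for some of them.

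The nuclear-encoded ATP synthase genes described here were chosen by name, with no measured value in the rule. They were atp-1, atp-2, atp-3, atp-4, atp-5, asb-1, asb-2, asg-1, asg-2 and hpo-18, and all 10 were present among the 16262 genes of the deposited table. RNA was sequenced from whole young adult worms in 6 libraries. In 3 of them LARP-1, a La-related protein that binds RNA, carried GFP at its own locus (LARP-1::GFP, yq636), and in the other 3 it carried the engineered peroxidase APEX2 (LARP-1::APEX2, yq637). Worms of both strains were grown at 20 °C on E. coli OP50, held for 2 h at 25 °C with 3.3 mM biotin-aniline and exposed to H2O2 for 2 min, so that the GFP animals received the same reagents without the enzyme. The titles name an immunoprecipitation, whereas the protocols describe total RNA with ribosomal RNA removed and no pull-down. Recovery near the tagged protein and RNA level in the strains therefore cannot be told apart, and an untagged strain or an unlabelled input was not analysed here. The labels do not say whether the replicates were separate cultures, so the spread that the tests measure may be technical.

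The libraries held 3824041 to 6414569 reads on listed genes, of which each member had 787 to 19195. All 10 passed the filter for testing, a mean of at least 10 normalized counts (reads divided by a library size factor), and the lowest member mean was 1164. Of 10534 genes tested, 21.7% were called at an adjusted p under 0.05, 11.6% higher and 10.1% lower with APEX2. The members are strongly expressed, and among the 801 tested genes with a mean of at least 1000 the shares were 30.2% higher and 13.6% lower. APEX2 replicate 1 stood apart from the other 2 APEX2 libraries on the second principal component (-28.3 against 18.4 and 17.2), so values without it are given where it matters.

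RNAs of the catalytic subunits alpha and beta, of the stalk subunit F6 and of one of the paralogs of subunit g were more abundant with LARP-1::APEX2 than with LARP-1::GFP. Of the 10 members, atp-1, atp-2, atp-4 and asg-2 rose, 0 fell and 6 did not pass (limma, Benjamini-Hochberg over all 10534 genes). At an unadjusted p under 0.05, 5 members were higher and 1, hpo-18, lower, where 33.9% of all tested genes passed in either direction. On the recovered reads edgeR called 4 higher and 0 lower and DESeq2 4 and 1. The members' count of 4 higher, or 40% of them, stood beside 11.6% of all tested genes and 30.2% of those with a mean of at least 1000. The median log2 difference, APEX2 minus GFP on log2(normalized count + 1), was 0.22 over the members, 0.02 over all tested genes and 0.13 over those with a mean of at least 1000. Together the members took 0.773%, 0.841% and 0.790% of the summed values in GFP replicates 1 to 3. In APEX2 replicates 1 to 3 they took 0.977%, 1.000% and 0.957%, so the groups did not overlap in this share. It rests mostly on atp-1 and atp-2, which had the highest counts of the members. The groups did not overlap either in the share of complexes II and III (0.327% to 0.344% with GFP, 0.400% to 0.421% with APEX2). The same held for complex IV with cytochrome c (0.457% to 0.470% and 0.503% to 0.520%). Such separation was not limited to respiratory genes. Among the marker lists given below, the shares of oocyte and body wall muscle were higher with APEX2 without overlap. Those of intestine and sperm were lower without overlap, and those of germline, hypodermis and neurons overlapped. In whole animals, fewer cells of a type and less RNA per cell cannot be told apart.

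**Figure D1:**
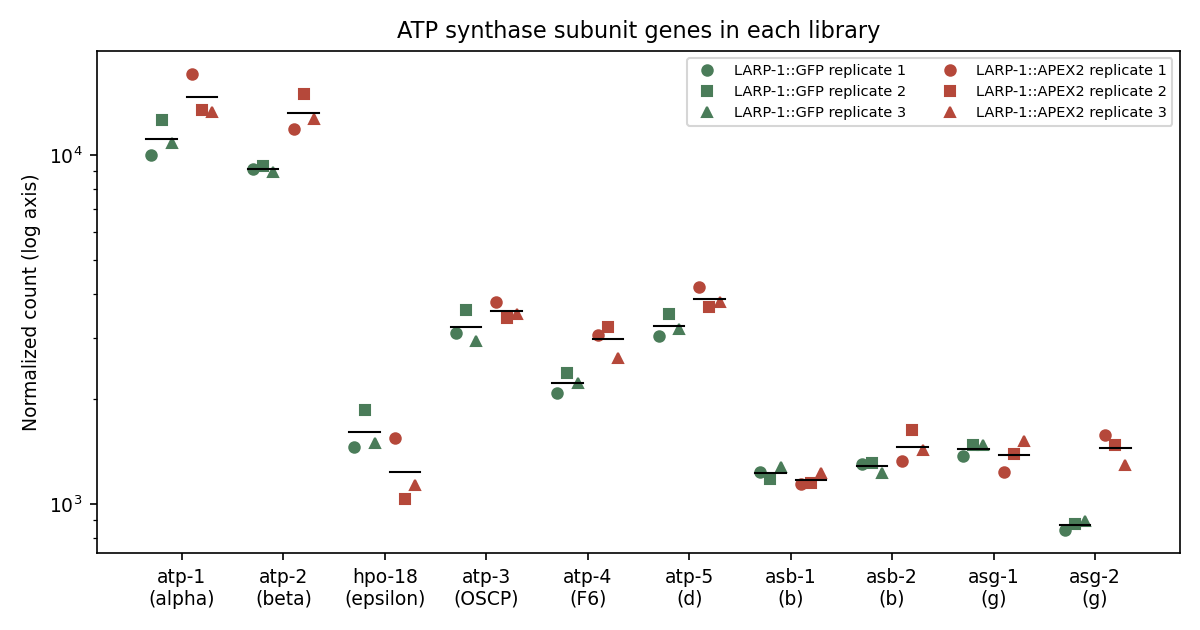
Normalized counts (log axis) of the 10 members in each library, GFP in green and APEX2 in red, with a symbol for each replicate number and a line at each group mean. The subunit is given in brackets. The genes asg-2 and atp-2 show the widest gaps between groups, and the groups of atp-3, asb-1, asg-1 and hpo-18 overlap.

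The alpha and beta subunits form the catalytic head, with the nucleotide sites lying between them. The gene for beta, atp-2 (WBGene00000229, chromosome III, 5228417 to 5230536, plus strand, WBcel235), had 9102, 9322 and 8918 normalized counts with GFP and 11867, 14934 and 12654 with APEX2. The groups lay well apart, and replicate 2 was the highest of the APEX2 libraries. The mean rose from 9114 ± 202 to 13152 ± 1593 (SD, n = 3), a log2 difference of 0.52 ± 0.10 (SE; limma adjusted p = 0.0022), and the rise was called under all 17 alternative settings. The gene for alpha, atp-1 (WBGene00010419, chromosome I, 12652277 to 12654655, plus strand), had 9993, 12574 and 10830 normalized counts with GFP and 17093, 13463 and 13280 with APEX2. The groups did not overlap, but the gap between the highest GFP and the lowest APEX2 library was small. The log2 difference was 0.39 ± 0.12 (limma adjusted p = 0.028). The largest value came from APEX2 replicate 1, without which the difference was 0.27 (adjusted p = 0.0498). It no longer passed without GFP replicate 1 or 3 or APEX2 replicate 2, where the adjusted p reached 0.14.

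Both catalytic genes were higher in every APEX2 library than in any GFP library, but they ordered the APEX2 libraries differently. The highest value of atp-1 was in APEX2 replicate 1 and that of atp-2 in APEX2 replicate 2. Per kilobase of exonic sequence, the level of atp-1 relative to atp-2 was 1.04, 1.28 and 1.15 in the GFP libraries and 1.37, 0.856 and 0.997 in the APEX2 libraries. The groups overlapped, and APEX2 held both the highest and the lowest ratio.

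The gene for the small epsilon subunit of the head's central stalk, hpo-18 (WBGene00017982, chromosome V, 4346089 to 4346425, minus strand), was the member with the lowest difference. It had 1465, 1861 and 1498 normalized counts with GFP and 1551, 1037 and 1138 with APEX2. APEX2 replicates 2 and 3 lay below every GFP library, while APEX2 replicate 1 lay among them. The log2 difference of -0.39 ± 0.14 did not pass (limma adjusted p = 0.066). Without APEX2 replicate 1 it was -0.56 and passed (adjusted p = 0.0012), and with values corrected for exonic length it was -0.02 (adjusted p = 0.96). At 290 nt hpo-18 had the least exonic sequence of the members.

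The peripheral stalk is made of OSCP, which sits on top of the head, and of subunits b, d and F6. The F6 gene atp-4 (WBGene00020275, chromosome V, 6426246 to 6427112, minus strand) had 2084, 2383 and 2226 normalized counts with GFP and 3058, 3223 and 2622 with APEX2. Every APEX2 library was above every GFP library. The log2 difference was 0.41 ± 0.10 (limma adjusted p = 0.013), and 0.38 without APEX2 replicate 1. As for atp-1, leaving out GFP replicate 1, GFP replicate 3 or APEX2 replicate 2 ended the call of atp-4, with adjusted p values up to 0.072.

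The subunit d gene atp-5 (WBGene00007385, chromosome V, 11122901 to 11123867, minus strand) had 3044, 3514 and 3180 normalized counts with GFP and 4186, 3680 and 3784 with APEX2. The groups did not overlap, yet the log2 difference of 0.26 ± 0.10 did not pass (limma adjusted p = 0.075). It did pass once values were corrected for exonic length, at 0.29 (adjusted p = 0.041). The OSCP gene atp-3 (WBGene00000230, chromosome I, 5428533 to 5429908, minus strand) had 3097, 3596 and 2943 normalized counts with GFP and 3791, 3424 and 3507 with APEX2, and here the groups overlapped. Its log2 difference was 0.16 ± 0.10, with a 95% interval of -0.06 to 0.38 (limma adjusted p = 0.30).

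Subunit b, the long arm of the stalk, has a pair of genes in the worm, of which asb-1 is known as the germline form. The gene asb-1 (WBGene00000206, chromosome III, 4594543 to 4595821, minus strand) had 1237, 1182 and 1283 normalized counts with GFP and 1142, 1154 and 1230 with APEX2. The groups overlapped, and the log2 difference of -0.07 ± 0.10 did not pass (limma adjusted p = 0.65; 95% interval -0.27 to 0.13). The gene asb-2 (WBGene00000207, chromosome X, 4469766 to 4471476, plus strand) had 1304, 1318 and 1234 normalized counts with GFP and 1330, 1632 and 1432 with APEX2. The groups came close without overlapping, and the log2 difference of 0.18 ± 0.10 did not pass (limma adjusted p = 0.23; 95% interval -0.04 to 0.40).

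Within a library the scaling cancels, so the 2 paralogs were also compared as a ratio. The log2 ratio of asb-1 to asb-2 was -0.08, -0.16 and 0.06 with GFP and -0.22, -0.50 and -0.22 with APEX2. All APEX2 libraries were below all GFP libraries, with a mean difference of -0.25 (two-sided exact permutation p = 0.1, the smallest that 3 against 3 libraries allow). APEX2 replicate 2 was the lowest, and without it the mean difference was -0.16. Per kilobase of exonic sequence the level of asb-1 was 1.03 to 1.20 times that of asb-2 with GFP and 0.814 to 0.989 times with APEX2. In APEX2 replicates 1 and 3 the paralogs were nearly level (0.988 and 0.989). Without the division by length, asb-1 was already below asb-2 in GFP replicates 1 and 2 (0.949 and 0.896 times), so which paralog was higher depends on that division.

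Marker genes of the germline and oocyte were examined beside this pair. Over all tested genes 11.6% rose and 10.1% fell (limma), around a median log2 difference of 0.02. Among those with a mean of at least 1000, 30.2% rose and 13.6% fell. Of 10 germline markers 2 rose, 2 fell and 6 did not pass (limma), around a median of 0.02, and they took 0.307% to 0.314% of the summed values with GFP and 0.312% to 0.325% with APEX2. Of 10 oocyte markers 6 rose and 1 fell, with a median of 0.31, and their share was 0.564% to 0.593% with GFP and 0.675% to 0.701% with APEX2. Among somatic lists, 2 of 10 body wall muscle markers rose and 2 fell, with a median of 0.05. Their share was 0.900% to 1.02% with GFP and 1.05% to 1.103% with APEX2. Of 7 intestinal markers 1 rose and 2 fell, with a median of -0.32, and their share was 1.95% to 2.14% with GFP and 1.46% to 1.81% with APEX2. Of the 7 hypodermal markers tested 3 rose and 0 fell, of 10 neuronal markers 1 rose and 0 fell, and of the 7 sperm markers tested 0 rose and 0 fell (limma). The medians of these lists were 0.63, 0.11 and -0.09 in that order, and the hypodermal median was the highest of the marker lists. At an unadjusted p under 0.05, 0 hypodermal, 1 neuronal and 1 sperm marker were lower and 0 sperm markers higher, and edgeR and DESeq2 called 0 sperm markers. The summed shares were 0.115% to 0.144% and 0.102% to 0.153% for hypodermis, 0.0477% to 0.0504% and 0.0479% to 0.0526% for neurons, and 0.00813% to 0.00939% and 0.006835% to 0.00725% for sperm, with GFP and APEX2 in that order. Every gene in the table had at least 2 reads over the 6 libraries, so no marker in it could be at 0 in all of them. The part of cell composition in the members' differences was not tested.

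**Figure D2:**
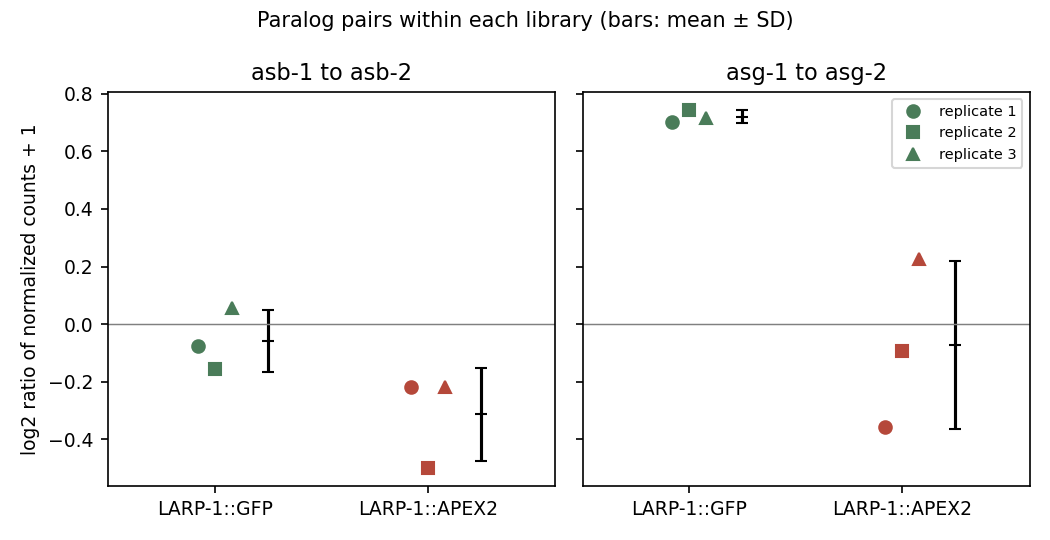
Log2 ratio of normalized counts + 1 for asb-1 to asb-2 and for asg-1 to asg-2 in each library, with the mean ± SD of each group beside the points. The ratios of both pairs were lower in all 3 APEX2 libraries than in any GFP library, by 0.25 and 0.79 in the mean.

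Subunit g belongs to the membrane part and is likewise encoded by a pair of genes, whose longest annotated proteins both have 131 residues. The gene asg-2 (WBGene00000210, chromosome X, 6841258 to 6842121, plus strand) showed the largest difference of the members. It had 843, 882 and 899 normalized counts with GFP and 1583, 1484 and 1294 with APEX2. The GFP libraries lay close together, and even the lowest APEX2 library was far above them. The mean rose from 875 ± 28.4 to 1453 ± 147 (SD, n = 3), 1.66 times the GFP level, with a log2 difference of 0.73 ± 0.10 (limma adjusted p = 0.00030). This increase was called under all 17 alternative settings, with differences of 0.61 to 0.91, and was 0.66 without APEX2 replicate 1.

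Its paralog asg-1 (WBGene00000209, chromosome I, 8692946 to 8693468, plus strand) had 1373, 1477 and 1477 normalized counts with GFP and 1236, 1391 and 1515 with APEX2. The groups overlapped, and the log2 difference of -0.07 ± 0.10 did not pass (limma adjusted p = 0.69; 95% interval -0.29 to 0.15). The log2 ratio of asg-1 to asg-2 was 0.70, 0.74 and 0.72 with GFP and -0.36, -0.09 and 0.23 with APEX2. It was thus nearly constant among the GFP libraries and spread widely among the APEX2 libraries, all of which were lower. The mean difference was -0.79 (two-sided exact permutation p = 0.1, the smallest possible), and -0.65 without APEX2 replicate 1. Per kilobase, asg-1 stood at 1.70 to 1.75 times the level of asg-2 with GFP and at 0.816 to 1.22 times with APEX2.

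**Figure D3:**
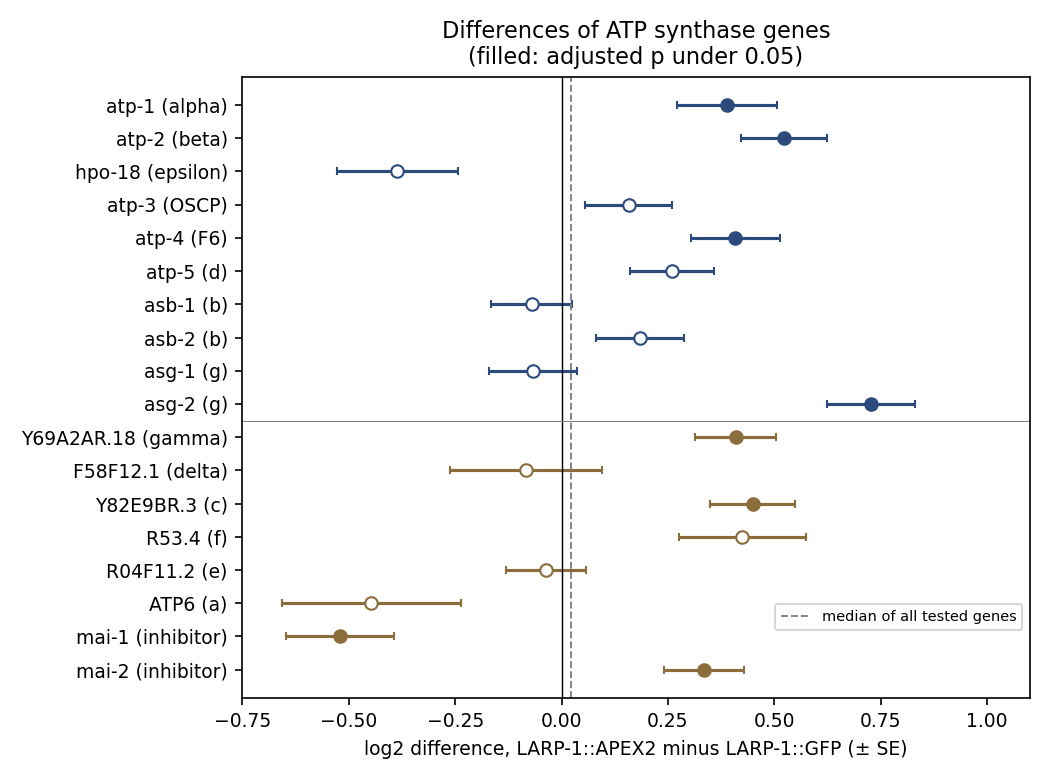
Log2 difference, APEX2 minus GFP, with its SE for the 10 members (blue) and the 8 other ATP synthase genes in the table (brown), where filled points had an adjusted p under 0.05. The dashed line marks the median of all tested genes, 0.02; most genes lie to its right, and hpo-18, ATP6 and mai-1 lie farthest to its left.

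In the GFP libraries the members' levels per kilobase of exonic sequence ran from 1088 ± 38.4 for asb-2 to 5545 ± 757 for hpo-18 (SD, n = 3). In descending order they were hpo-18, atp-1 at 5481 ± 648, atp-2 at 4725 ± 105, atp-4 at 4116 ± 275, atp-5 at 4103 ± 306, atp-3 at 3109 ± 330, asg-1 at 3030 ± 127, asg-2 at 1760 ± 57.1, asb-1 at 1203 ± 49.2 and asb-2. Neighbours whose means ± SD overlapped were hpo-18 and atp-1, atp-4 and atp-5, and atp-3 and asg-1. In the APEX2 libraries atp-1 and atp-2 led with 7195 ± 1059 and 6818 ± 826, whose spreads overlapped, and hpo-18 stood in the fifth place at 4282 ± 939. There asg-2 and asg-1 were level at 2924 ± 295 and 2901 ± 294, and asb-2 and asb-1 remained lowest at 1240 ± 130 and 1146 ± 46.6. Levels per kilobase are not corrected for the way group differences varied with length, described below. With that correction the log2 difference of hpo-18, the shortest member, was -0.02, so its change of place cannot be told apart from the trend with length.

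Library by library, 7, 7 and 8 of the members lay above their GFP mean in APEX2 replicates 1 to 3. The median log2 deviation from that mean was 0.31, 0.23 and 0.19. APEX2 replicate 1 held the highest value of the 6 libraries for atp-1, atp-3, atp-5 and asg-2 and the lowest for asb-1 and asg-1. Among the GFP libraries, replicate 2 was the highest, with 9 of the members above their mean. For 6 members, all higher with APEX2, no APEX2 library reached down to a GFP library, where this held for 19.9% of all tested genes and for 39.2% of those with a mean of at least 1000.

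The members differ in length, and short genes were lower with APEX2 in these libraries. Of the members, atp-4, asg-1, asg-2 and hpo-18 belonged to the shortest 10% of tested genes (30 to 567 nt of exonic sequence), where the median log2 difference was -0.27, 6.10% of the genes were called higher and 25.8% lower. In that class atp-4 and asg-2 rose, against its median. With values corrected for exonic length, asg-2 had a log2 difference of 0.91, atp-4 of 0.56, atp-2 of 0.47 and atp-5 of 0.29, and all 4 passed. The difference of atp-1 was 0.33 and no longer passed (limma adjusted p = 0.060), and that of asg-1 changed from -0.07 to 0.13 without passing (adjusted p = 0.41). After the correction 19.5% of all genes were called in either direction, and the members' median was 0.21 against 0.00 over all genes.

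**Figure D4:**
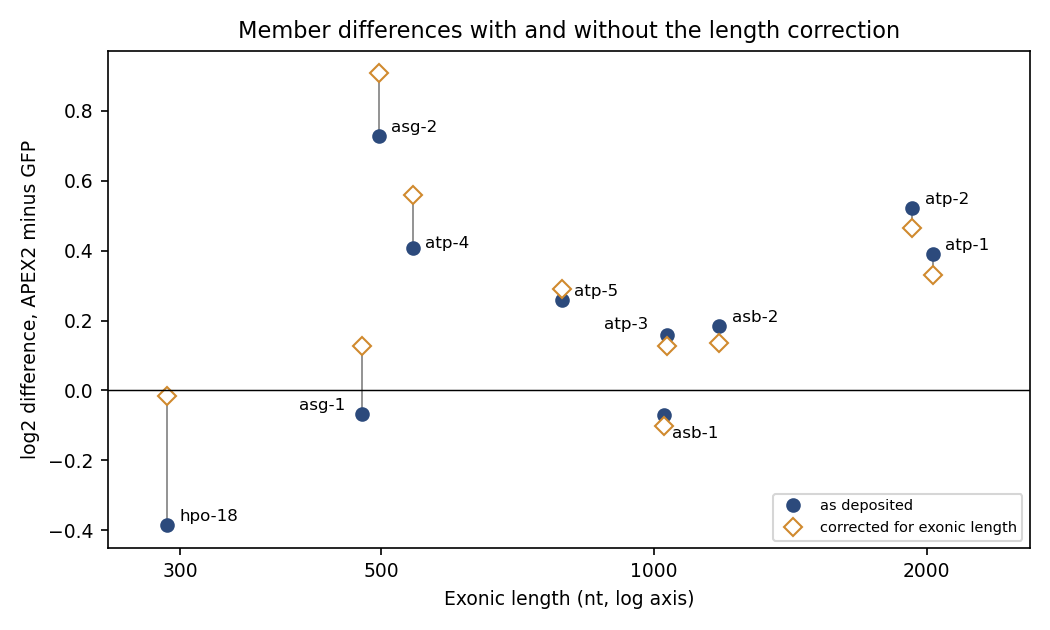
Log2 difference, APEX2 minus GFP, of each member against its exonic length (log axis), from the values as deposited (filled circles) and after the correction for length (open diamonds). The correction raises the short genes asg-2, atp-4, asg-1 and hpo-18 and lowers atp-1 and atp-2 slightly; hpo-18 moves from -0.39 to -0.02.

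The other genes of the enzyme and of its inhibitor showed rises and falls as well. Of 9 listed, 8 were in the table, of which 3 rose, 1 fell and 4 did not pass (limma), where 11.6% of all tested genes rose and 10.1% fell. All of these 8 but F58F12.1 had a mean of at least 1000, and among tested genes at that level 30.2% rose and 13.6% fell. The gene for the gamma subunit that turns inside the head, Y69A2AR.18, rose by 0.41 ± 0.10 (adjusted p = 0.0077), from 3307, 3670 and 3319 normalized counts to 4850, 4562 and 4260. The gene Y82E9BR.3, for subunit c of the rotor ring, rose by 0.45 ± 0.10 (adjusted p = 0.0057) and had the highest level of all, with 20705 ± 1574 normalized counts with GFP and 28307 ± 2851 with APEX2 (SD, n = 3). The membrane subunit f gene R53.4 had 0.42 ± 0.15 and did not pass (adjusted p = 0.054), and without APEX2 replicate 1 it had 0.23. It passed without APEX2 replicate 3 (0.57, adjusted p = 0.0099), with the length correction (0.51, 0.023), with quantile normalization (0.44, 0.019) and with DESeq2 (0.43, 0.034). The genes for delta, F58F12.1, and for subunit e, R04F11.2, had differences of -0.08 and -0.04 and did not pass. Subunit a is encoded in the mitochondrial genome, and its gene ATP6 had a difference of -0.45 ± 0.21 (adjusted p = 0.15), which was -0.20 without APEX2 replicate 1 and -0.72, passing, without GFP replicate 2 (adjusted p = 0.026).

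The paralogs of the ATPase inhibitor, a small protein that keeps the enzyme from running backwards, parted. The gene mai-2 rose by 0.33 ± 0.09 (limma adjusted p = 0.020), from 2506, 2726 and 2420 normalized counts to 3321, 3217 and 3106. The gene mai-1 had 1352, 1449 and 1409 normalized counts with GFP and 1197, 971 and 805 with APEX2, and fell, with a log2 difference of -0.52 ± 0.13 (limma adjusted p = 0.0097). Neither pair of groups overlapped. The exons of mai-1 share 22 nt with those of gpd-2 on the same strand, 2.12% of its exonic length. The calls of mai-1 and Y69A2AR.18 ended without GFP replicate 3 (adjusted p = 0.052 for each), and that of mai-2 when GFP replicate 1, GFP replicate 3 or APEX2 replicate 2 was left out (adjusted p up to 0.11).

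Among the members, exons overlapped those of another annotated gene over 16 nt in atp-4, over 18 nt in asg-1 and over 21 nt in atp-1, at most 3.78% of the exonic length. Whether reads were counted by strand is not given in the sources used here, and the sharing of reads between the paralogs of a pair was not examined.

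In other respiratory complexes of the inner membrane, 42.9% of the genes of complexes II and III and 33.3% of those of complex IV and cytochrome c were called. This stood beside 40% of the members and 21.7% of all tested genes. Among tested genes with a mean of at least 1000, 30.2% were called higher and 13.6% lower, and some genes of both complex lists lay below that mean. The difference between the lists was not tested. Of 14 nuclear genes of complexes II and III, 6 rose and 0 fell, around a median of 0.13, and the lowest adjusted p values were those of isp-1, for the Rieske iron-sulphur protein (0.56 ± 0.09, limma adjusted p = 0.00075), and of the succinate dehydrogenase gene sdhd-1 (0.78 ± 0.13, 0.00077). Of 9 nuclear genes of complex IV and cytochrome c, 3 rose and 0 fell, around a median of 0.08, with the lowest adjusted p values for cox-4 (0.67 ± 0.10, adjusted p = 0.00035) and cox-6C (0.35 ± 0.11, 0.034). No gene of either list was lower at an unadjusted p under 0.05, by edgeR or by DESeq2. The call of cox-6C ended under 8 of the alternative settings.

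The genes whose levels over the 6 libraries most resembled the members' mean profile were sought among 7013 other genes with a mean of at least 50. They were ncx-1 (Pearson r = 0.996), which encodes a sodium-calcium exchanger, vha-2 (0.996), a proton-pumping V-ATPase subunit, trap-4 (0.994) and sec-61.A (0.993), both of protein entry into the endoplasmic reticulum, and zip-9 (0.993). These values describe 6 libraries in 2 groups, in which any gene higher with APEX2 resembles the profile in part. The log2 difference of these genes lay between 0.49 for ncx-1 and 0.73 for sec-61.A and zip-9.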

How the data were processed

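Per the submitters' processing notes, Trim Galore, Bowtie, STAR, featureCounts and DESeq2 were used with ce11; versions, settings and strandedness are not stated in these sources. The authors deposited a signal per gene and library, named normalized counts. Dividing each library by its lowest nonzero value gave whole numbers for 100% of genes (tolerance 0.001), that is, read counts over 1 size factor.

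Genes with a mean of at least 10 were compared as log2(value + 1) with limma 3.58.1 in R 4.3.3 (trended, robust prior, no covariate, two-sided), with Benjamini-Hochberg adjustment over all 10534. This scale understates the change of low genes. Paralog ratios were compared by exact permutation. On the recovered reads, edgeR 4.0.16 (quasi-likelihood, 2216 genes called) and DESeq2 1.42.0 (1992) were alternatives. Others were pseudocounts of 0.5 and 5, no filter or a mean of at least 50, TMM, equal totals, quantile normalization, a replicate block, leaving out each library, and a length correction (loess, span 0.5, of each library's deviation on log2 exonic length). The limma and edgeR fits were also run on simulated counts with the same dispersion for every gene and no outlying library or trend with length. Because the data differ in these points, that run says nothing about the calls made here.

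Names were matched to Ensembl WBcel235, the assembly of ce11 (16179 genes), and 9 mitochondrial genes to RefSeq; 74 had no match. Exonic length is the union of annotated exons; coordinates are 1-based. R05D3.6 and opt-2 were not found by name. The members, lists and tests were chosen with earlier results of these data known. The text names all members, the other ATP synthase genes, the 2 genes of lowest adjusted p per comparison list and the 5 most like the members. The atp-1 to atp-2 ratio and the class with a mean of at least 1000 were chosen after the values were seen.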

Additional observations from a re-analysis of the deposited data

How the results depend on the processing

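The members kept the same direction in 168 of 170 alternative values, 154 of them also on the same side of the threshold. In part this was fixed in advance. The changed filters and the replicate block leave the log2 differences as they were, and the pseudocounts hardly move them at these levels. The exceptions in direction were both asg-1, at 0.13 with the length correction and 0.010 without APEX2 replicate 1, against -0.14 to 0.010 over the libraries left out. Among the other ATP synthase genes, F58F12.1 turned to 0.02 without GFP replicate 1 and 0.18 without APEX2 replicate 1 (range -0.24 to 0.18), and R04F11.2 to 0.075 with the length correction. The number of members called ranged from 2 to 5 when a library was left out (asg-2 and atp-2 each time), and that of all genes from 1162 without GFP replicate 3 to 2501 without APEX2 replicate 1. Quantile normalization ended the call of atp-4 (adjusted p = 0.064), and hpo-18 was called lower with quantile normalization (0.0056), equal totals (0.021), no filter (0.049) and DESeq2 (0.04997). The labels share replicate numbers but name no pairing. Deviations of same-numbered libraries from their group means correlated at -0.16, -0.082 and 0.023. With 3 libraries per group, these values cannot show whether same-numbered libraries were prepared together. With the replicate block 1867 genes and 4 members were called, the same members, and the call of mai-2 ended (adjusted p = 0.053) as did that of cox-6C (0.051); the paralog ratios had an exact p of 0.25, the smallest for 3 pairs. PCR duplicates were not separable here, and 3 libraries per group limit the precision of each member to a standard error of 0.10 to 0.14.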
